A study of Mus musculus with 14 samples.

Results

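Liver sinusoidal endothelial cells were followed through 9 of their genes, Stab1, Stab2, Lyve1, Clec4g, Fcgr2b, Kdr, Pecam1, Cdh5 and Eng, in whole mouse liver. The genes were chosen by name, and every probe that the array holds for them was read. They are 9 of the 16593 named genes on the array and are represented by 12 of its 25697 probes. All livers came from male C57Bl/6J mice housed free of specific pathogens and on isocaloric diets that differed in their disaccharide. One diet held palatinose (isomaltulose, an isomer of sucrose that is digested more slowly, 7 mice) and the other held sucrose (7 mice). The sample titles put both groups at 22 weeks of feeding, whereas the age given for them is 18 weeks, so the age at which the livers were taken is not settled by the labels. The labels name no genotype, drug or transgene in either group. RNA from each liver was hybridised to 1 Illumina MouseRef-8 v2 array, which measures each transcript by the brightness of a probe.

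Sinusoidal endothelial cells line the capillaries of the liver with a wall that is perforated by fenestrae and lacks an ordinary basement membrane. They are among the most active scavenger cells of the body and take up modified proteins, hyaluronan and immune complexes from blood through a small set of receptors. Stabilin-1 (Stab1), stabilin-2 (Stab2), the lectin LSECtin (Clec4g), the inhibitory IgG receptor FcγRIIb (Fcgr2b) and the hyaluronan receptor homologue Lyve1 belong to that set. Kdr encodes the VEGF receptor VEGFR2, and Eng encodes endoglin, a co-receptor for BMP and TGF-β ligands. Pecam1 (CD31) and Cdh5 (VE-cadherin) are adhesion molecules of endothelial cell contacts in most vessels. Several of the genes are also active elsewhere: Stab1 and Fcgr2b in macrophages, Fcgr2b in B cells, Lyve1 in lymphatic endothelium and Pecam1 in leukocytes and platelets.

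Promoter sequences were available from RefSeq for 6 of the 9 genes, on build GRCm38.p6, as the 250 bases before and 50 bases after the annotated start. The 4 printed here belong to uptake receptors, the genes that carry most of the results below. Capitals mark the letters AGGAAG or their reverse complement CTTCCT, a core recognised by ETS factors, a family with several endothelial regulators. In the Clec4g promoter 2 of the 3 copies overlap.
Stab1, chr14:31168592-31168891, minus strand: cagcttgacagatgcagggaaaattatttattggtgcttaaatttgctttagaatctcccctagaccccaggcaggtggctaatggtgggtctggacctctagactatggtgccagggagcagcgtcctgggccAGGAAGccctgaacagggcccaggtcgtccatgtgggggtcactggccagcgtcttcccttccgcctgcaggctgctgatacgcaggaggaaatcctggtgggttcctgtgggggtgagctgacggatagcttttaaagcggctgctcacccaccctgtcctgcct
Stab2, chr10:87007893-87008192, minus strand: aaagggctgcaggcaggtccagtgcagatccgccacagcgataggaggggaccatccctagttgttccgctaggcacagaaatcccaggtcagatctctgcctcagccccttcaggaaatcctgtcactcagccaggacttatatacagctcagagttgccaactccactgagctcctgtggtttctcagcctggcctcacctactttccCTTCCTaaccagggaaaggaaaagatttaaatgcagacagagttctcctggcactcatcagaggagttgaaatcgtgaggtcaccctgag
Clec4g, chr8:3720602-3720901, minus strand: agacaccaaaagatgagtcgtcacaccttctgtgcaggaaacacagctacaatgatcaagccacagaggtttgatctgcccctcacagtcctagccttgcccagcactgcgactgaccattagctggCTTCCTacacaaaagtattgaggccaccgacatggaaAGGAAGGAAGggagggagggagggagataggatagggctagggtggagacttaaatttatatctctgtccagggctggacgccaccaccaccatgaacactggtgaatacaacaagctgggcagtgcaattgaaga
Fcgr2b, chr1:170976022-170976321, minus strand: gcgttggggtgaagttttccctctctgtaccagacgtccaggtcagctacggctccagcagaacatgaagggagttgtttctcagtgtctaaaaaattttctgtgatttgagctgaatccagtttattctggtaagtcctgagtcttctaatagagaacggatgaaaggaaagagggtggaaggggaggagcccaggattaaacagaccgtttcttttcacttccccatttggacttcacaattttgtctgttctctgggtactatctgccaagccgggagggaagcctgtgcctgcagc
These letters occur once in the Stab1 and Stab2 windows, 3 times in that of Clec4g and 0 times in that of Fcgr2b. The Eng window holds 2 copies and the Kdr window 0, so 4 of the 6 windows hold the core, against 35.4% of 32851 mouse promoters of the same length. The GATA core AGATAA, the AP-1 site TGACTCA and the KLF core CCACACCC, searched on both strands, were in none of the 6 windows. They are in 11.2%, 5.2% and 3.56% of all promoters. A match describes letters in a window and is no evidence of binding.

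Mean intensity was 256.8 on SUC_424_02 and 190.2 to 214.9 on the other 13 arrays, and between 44.58% and 48.55% of probes were detected, at a detection p-value under 0.05, with the highest share on SUC_424_02. Hepatocyte secretory genes such as Ttr and Apoa1 were detected on all 14 arrays, with mean log2 intensities near the top of the scale (14.09 and 14.22 with palatinose, 14.11 and 14.20 with sucrose). The albumin probe (Alb), another hepatocyte marker, was detected on 4 arrays. Arrays are named here by diet and by the code of their column, such as PAL_429_03 or SUC_408_02. On 3 palatinose arrays and 2 sucrose arrays, transcripts of other organs stood out, with at least 1 muscle or pancreatic marker more than 4-fold above its median over the arrays. The 9 skeletal muscle markers summed to 4229 on PAL_429_03, 2064 on PAL_407_04, 580.2 on PAL_417_03 and 2316.3 on SUC_415_02, against 39.2 to 62.6 on the other arrays. The 9 pancreatic acinar markers on the array summed to 3426.8 on SUC_415_02 and 550.2 on SUC_421_03, against 31.9 to 57.2 on the others. Their part in the results below was not tested, and values without these 5 arrays are given where they turn a direction.

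For none of the 9 sinusoidal endothelial genes was the diet difference larger than the spread between mice allows for in the test. All 9 passed the filter for detected probes, 7 had a lower mean with palatinose and 2 (Stab1 and Kdr) a higher one, and none passed the test at an adjusted p under 0.05 in limma. Over all 8829 features tested, 0% were called at that threshold and 45.2% had a lower mean with palatinose. At an unadjusted p under 0.05, 0 of the 9 genes were called, against 7.1% of all features (3.35% in the direction of a lower value with palatinose). The palatinose and sucrose values overlapped for 9 of 9 genes, and 0.125% of all features had values that did not overlap. The 95% interval of the difference lay within 1.5-fold in either direction for 9 of 9 genes, a share that is 95.3% over all features. That bound depends on the offset added before the logarithm: with 4 in place of 16, a setting added after the data were seen, it held for 7 of 9 genes (not for Lyve1 and Kdr) and 86.2% of features. The median difference, palatinose minus sucrose, was -0.10 on the log2 scale for the 9 genes and 0.01 for all features. The sign of that median and the count of lower genes rest on 1 array: without PAL_429_03, 4 of 9 genes were lower and the median was 0.0038. In whole liver, fewer endothelial cells and less RNA per endothelial cell cannot be told apart.

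**Figure D1:**
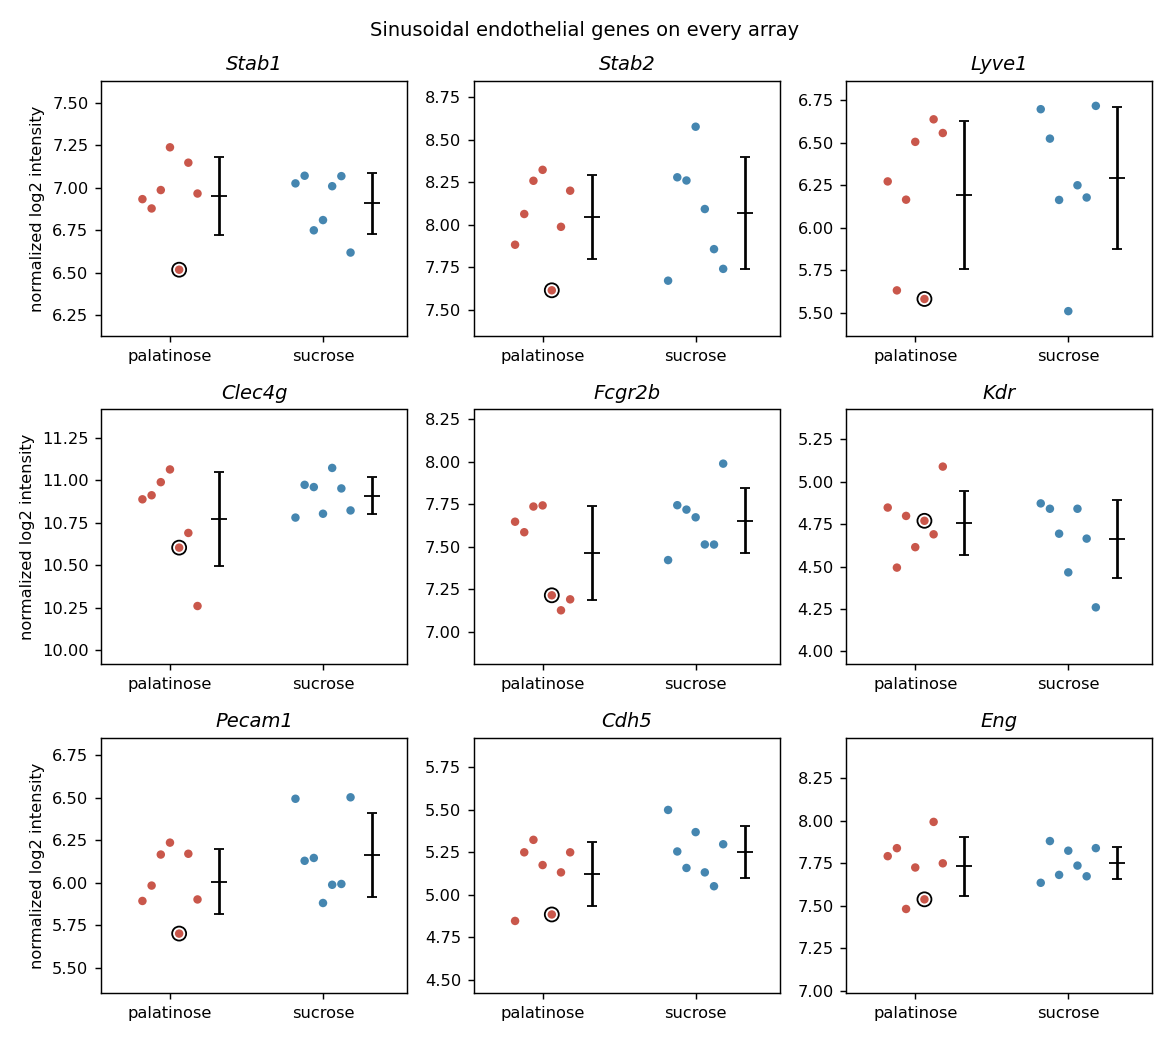
Normalized log2 intensity of the tested probe of each of the 9 genes on every array, palatinose left and sucrose right, with mean and SD (n = 7 each); PAL_429_03 is circled. The diets overlap in every panel, and PAL_429_03 is the lowest palatinose array for Stab1, Stab2, Lyve1 and Pecam1.

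Among the uptake receptors, Stab1 (probe ILMN_2727432) was the one with a higher mean on palatinose, by a small amount. Its log2 intensity was lowest at 6.52, had a median of 6.97 and was highest at 7.24 in palatinose livers, against 6.62, 7.01 and 7.07 in sucrose livers. The palatinose values therefore enclosed all of the sucrose values. Stab1 averaged 6.95 ± 0.23 in palatinose livers and 6.91 ± 0.18 in sucrose livers (SD, n = 7 each), a difference of 0.04 (95% interval -0.18 to 0.27, limma adjusted p = 0.940). Without PAL_429_03 the difference was 0.12, and without SUC_424_02 it was -0.0031.

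Stab2 (ILMN_2737368), whose product clears hyaluronan from blood, gave 7.61, 8.06 and 8.32 as lowest, median and highest log2 intensity in palatinose livers, against 7.67, 8.09 and 8.58 in sucrose livers. The 2 diets had nearly the same centre and the sucrose mice were more spread out. Stab2 averaged 8.05 ± 0.25 with palatinose and 8.07 ± 0.33 with sucrose (SD, n = 7 each), and the difference was -0.02 (95% interval -0.32 to 0.28, limma adjusted p = 0.979). Its sign turned when any of 5 arrays was left out, with values from -0.09 to 0.06 over the 14 omissions. Without the 5 arrays with muscle or pancreatic transcripts the Stab2 difference was 0.12.

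Lyve1 (ILMN_2483304) varied more between mice than any other of the 9 genes. It ran over 5.58, 6.27 and 6.64 (lowest, median, highest) in palatinose livers, against 5.51, 6.25 and 6.72 in sucrose livers. Both diets held mice at either end of this range. The lowest values were those of PAL_429_03 and PAL_417_02 (5.58 and 5.63) with palatinose and of SUC_417_01 (5.51) with sucrose. Lyve1 averaged 6.19 ± 0.43 with palatinose and 6.29 ± 0.42 with sucrose (SD, n = 7 each), with a difference of -0.10 (95% interval -0.52 to 0.32, limma adjusted p = 0.926). Without PAL_429_03 this difference was 0.0038, and without the 5 arrays with other tissue it was 0.0081.

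Clec4g (ILMN_1234165), a lectin receptor found on sinusoidal endothelium, was bright on all arrays, with 1245 to 2068 intensity units in palatinose livers and 1659 to 2254 in sucrose livers. On the log2 scale it ran over 10.26, 10.89 and 11.06 with palatinose, against 10.78, 10.95 and 11.07 with sucrose (lowest, median, highest). Palatinose arrays PAL_430_04, PAL_429_03 and PAL_430_01, at 10.26, 10.60 and 10.69, were below every sucrose array, and the other 4 palatinose arrays lay within the sucrose range. Clec4g averaged 10.77 ± 0.28 with palatinose and 10.91 ± 0.11 with sucrose (SD, n = 7 each), and the difference was -0.14 (95% interval -0.36 to 0.09, limma adjusted p = 0.795). Without PAL_430_04 it was -0.05.

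Fcgr2b, the receptor that removes small IgG complexes in the liver, had the largest difference of the 9 genes. Its brightest probe, ILMN_1228657, gave 7.13, 7.59 and 7.74 with palatinose, against 7.42, 7.67 and 7.99 with sucrose (lowest, median, highest log2 intensity). The 3 palatinose arrays that were low for Clec4g were again below every sucrose array, at 7.13 (PAL_430_01), 7.19 (PAL_430_04) and 7.21 (PAL_429_03). Fcgr2b averaged 7.46 ± 0.27 with palatinose and 7.65 ± 0.19 with sucrose (SD, n = 7 each), a difference of -0.19 (95% interval -0.44 to 0.06, limma adjusted p = 0.745). Leaving out each array in turn gave -0.24 to -0.13, and weighting the arrays by their quality gave -0.092. A second kept probe, ILMN_3102376, differed by -0.30 (95% interval -0.55 to -0.04), with an adjusted p of 0.587 when all kept probes were tested separately in limma. Its deviations from the diet means followed those of the first probe (Pearson r = 0.913, Spearman rho = 0.859 over 14 arrays), and the same 3 palatinose arrays gave its lowest values, 5.70 to 5.71. The remaining probe, ILMN_3029178, was detected on 1 palatinose array and 0 sucrose arrays and was left out by the filter.

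The growth factor receptors also overlapped between the diets. Eng (ILMN_1229161) gave 7.48, 7.75 and 7.99 with palatinose, against 7.63, 7.74 and 7.88 with sucrose (lowest, median, highest log2 intensity). The palatinose values reached beyond the sucrose values on both sides. Eng averaged 7.73 ± 0.18 with palatinose and 7.75 ± 0.10 with sucrose (SD, n = 7 each), a difference of -0.02 (95% interval -0.19 to 0.15, limma adjusted p = 0.960), the narrowest interval of the 9. Its sign turned when either of 2 arrays was left out (range -0.07 to 0.02), and it was 0.06 without the 5 arrays with other tissue. Kdr (ILMN_2665788) was dim: its intensity was 6 to 19 in palatinose livers and -1 to 13 in sucrose livers, and it was detected on 5 of 7 arrays of each diet. The probe was thus close to background. Kdr averaged 4.76 ± 0.19 with palatinose and 4.66 ± 0.23 with sucrose (SD, n = 7 each), with a log2 difference of 0.09 (95% interval -0.13 to 0.32, limma adjusted p = 0.860). Its difference was 0.03 without SUC_424_02, the dimmest array for the probe, and up to 0.14 on leaving out another array. It was 0.19 (95% interval -0.23 to 0.61) with the offset of 4 and 0.040 with an offset of 50, so its size follows the offset.

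The junction genes were both lower on average with palatinose, within their spread. Pecam1 (ILMN_2700982) gave 5.70, 5.98 and 6.24 with palatinose, against 5.88, 6.13 and 6.50 with sucrose (lowest, median, highest log2 intensity). PAL_429_03 was below every sucrose array and SUC_424_02 had the highest value of all arrays. Pecam1 averaged 6.01 ± 0.19 with palatinose and 6.16 ± 0.25 with sucrose (SD, n = 7 each), a difference of -0.15 (95% interval -0.39 to 0.08, limma adjusted p = 0.779). It was -0.097 without SUC_424_02, -0.099 without SUC_408_02 and -0.065 with array weights. The second Pecam1 probe, ILMN_3147074, differed by -0.14 (95% interval -0.33 to 0.05), and its deviations followed the first more loosely (Pearson r = 0.489, Spearman rho = 0.490 over 14 arrays). Cdh5 (ILMN_2866951) was dim but detected on all 14 arrays, with intensities of 13 to 24 with palatinose and 15 to 30 with sucrose. It averaged 5.12 ± 0.19 with palatinose and 5.25 ± 0.15 with sucrose (SD, n = 7 each), a log2 difference of -0.13 (95% interval -0.32 to 0.06, limma adjusted p = 0.778). The 2 lowest Cdh5 values were those of PAL_407_04 and PAL_429_03 (4.85 and 4.88). Both carried muscle transcripts, as did PAL_417_03, the highest palatinose array for Cdh5 (5.32), and SUC_415_02 (5.16). Without the 5 arrays with other tissue the Cdh5 difference was -0.09.

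**Figure D2:**
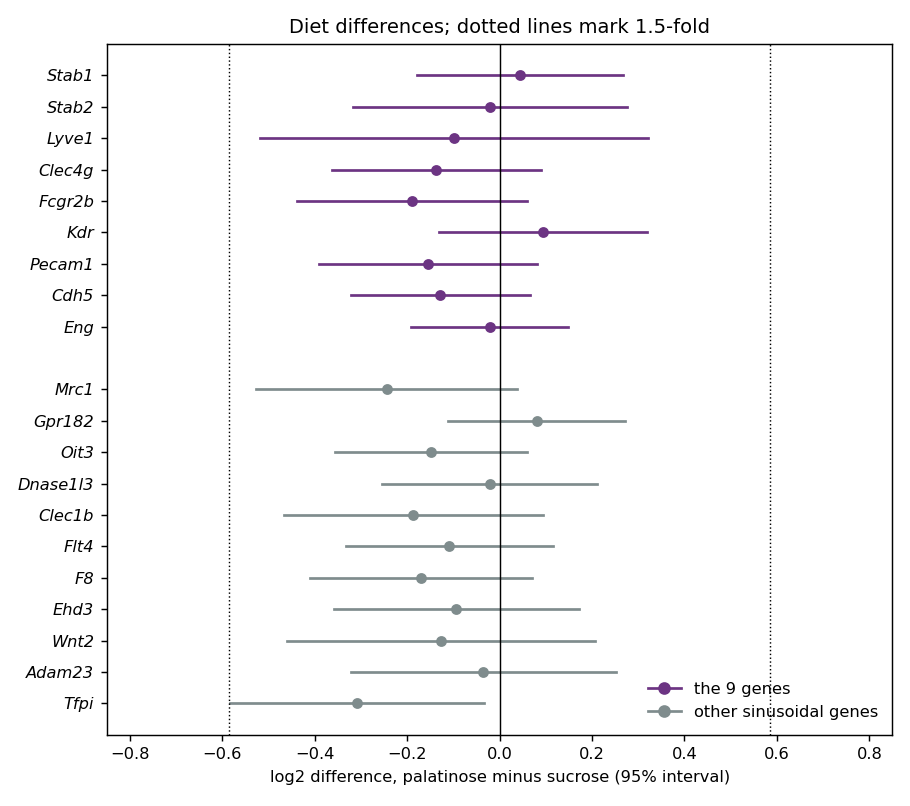
Difference between the diets, palatinose minus sucrose, in log2 intensity for each of the 9 genes, with 95% intervals from limma (n = 7 each). Grey marks 11 other measured genes of sinusoidal endothelium, and dotted lines mark 1.5-fold. The intervals of the 9 genes all include 0 and lie within 1.5-fold at the offset of 16 used here. Among the grey genes, the interval of Tfpi (-0.58 to -0.03) excludes 0.

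The 9 genes differed widely in how far mice on the same diet were spread. Pooled within-diet SDs were 0.43 for Lyve1, 0.29 for Stab2, 0.24 for Fcgr2b and 0.22 for Pecam1. Those of Clec4g, Kdr and Stab1 were all 0.21, and those of Cdh5 and Eng were 0.17 and 0.14. Lyve1 was at the 96.3rd percentile of all 8829 features by this SD and Stab2 at the 88.0th, whereas Eng was at the 24.1st. Set against features within 0.5 log2 units of the same mean level, Lyve1 was still at the 96.3rd percentile of 1587 features and Stab2 at the 87.8th of 1234. The median SD of the 9 genes was 0.21, and that of all features was 0.18. Eng was thus the steadiest of the 9 between mice and Lyve1 the most variable.

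Covariation across mice was examined on values from which the mean of each diet had been subtracted, so that a diet difference cannot produce it. Each gene entered by its tested probe alone, so the pairs of Pecam1 rest on ILMN_2700982. Of the 36 pairs of genes, 22 had a Pearson correlation above 0 (61.1%), against 50.2% of the 38971000 pairs of all features. The median of the 36 was 0.18 and that of all feature pairs 0.0021. No pair passed at an adjusted p under 0.05 by Pearson or Spearman correlation (100000 permutations, Benjamini-Hochberg over 36 pairs), and 3 had an unadjusted Pearson p under 0.05. The median rests on PAL_429_03 too: without that array it was -0.02, and without the 5 arrays with other tissue it was 0.0051. Correlations of single pairs ran from -0.523 to 0.720.

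**Figure D3:**
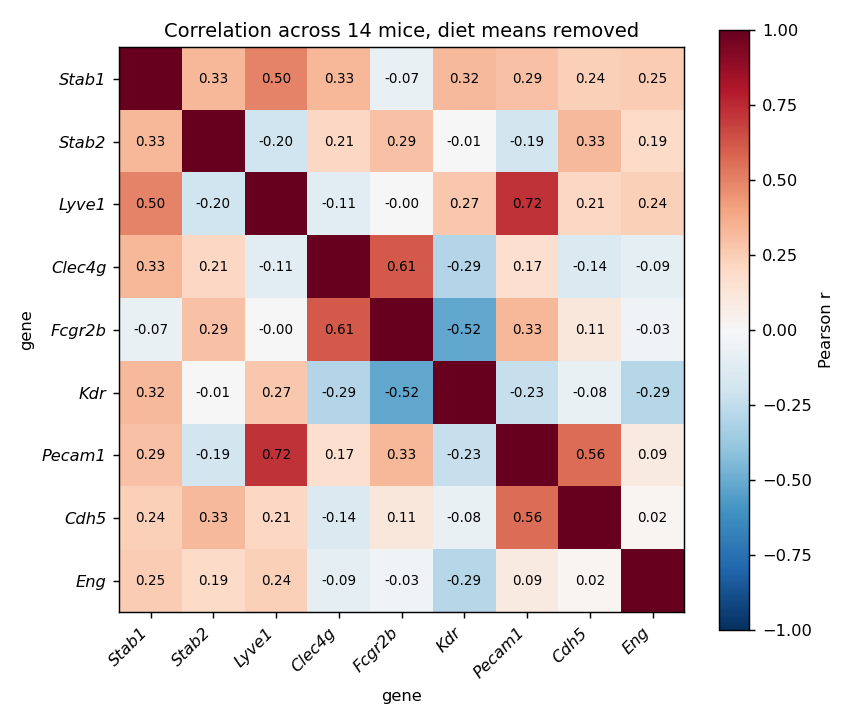
Pearson correlation of each pair of the 9 genes over the 14 arrays, on values centred on the mean of each diet. The highest is 0.720 for Lyve1 with Pecam1 and the lowest is -0.523 for Fcgr2b with Kdr.

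The closest pair was Lyve1, the hyaluronan receptor homologue, with the adhesion gene Pecam1. Their centred values had a Pearson r of 0.720 (permutation p = 0.00539, adjusted p = 0.194) and a Spearman rho of 0.728 (permutation p = 0.00615, adjusted p = 0.221). The correlation was 0.538 without the 2 arrays farthest from the median of Lyve1, SUC_417_01 and PAL_429_03. It was 0.585 within palatinose livers and 0.843 within sucrose livers, and 98.7% of all feature pairs had a lower value. SUC_417_01 was the lowest sucrose array for both genes, PAL_429_03 the lowest palatinose array for both, and SUC_424_02 the highest sucrose array for both. When arrays were scaled to a common median instead of a common distribution, the pair reached 0.787 with an adjusted permutation p of 0.0275. The median of the 36 pairs was also higher with that scaling, at 0.27.

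Clec4g with Fcgr2b, both receptors of the sinusoidal surface, followed with a Pearson r of 0.615 (permutation p = 0.0383, adjusted p = 0.515) and a Spearman rho of 0.644. Without the 2 arrays farthest from the median of Clec4g the correlation was 0.477. The 2 diets differed in the values they gave for this pair: r was 0.850 within palatinose livers and -0.170 within sucrose livers, and the difference itself was not tested. The palatinose value includes the 3 arrays that were low for both genes, and PAL_430_01 and PAL_430_04 among them share the first number of their column code. The meaning of that code is not given. Of the 14 arrays 5 share it with another array, the correlation between such arrays was estimated at 0.362 over all features, and the permutations here treat all arrays as independent. With that median scaling the pair had r = 0.730 and an adjusted permutation p of 0.0275. Pecam1 with Cdh5, the junction genes, had r = 0.562, which was 0.311 without the 5 arrays with other tissue and 0.442 to 0.722 on leaving out each array. These values hold for the Pecam1 probe ILMN_2700982. The second probe, ILMN_3147074, followed it only at r = 0.489, and pairs with that second probe were not examined. The lowest correlation, -0.523, joined Fcgr2b with the dim Kdr.

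Within a diet the correlations were scattered. The median of the 36 pairs was 0.286 in palatinose livers, with 24 pairs above 0, and -0.029 in sucrose livers, with 15 above 0. Without PAL_429_03 the median of the 6 palatinose arrays left was 0.033 and 19 pairs were above 0. In all, 17 of 36 pairs had the same sign in both diets. Stab1 with Pecam1 had r = 0.898 in palatinose livers and -0.298 in sucrose livers, and Stab2 with Lyve1 had 0.552 in palatinose livers and -0.790 in sucrose livers. With 7 arrays a diet these values have wide error, and differences between the diets were not tested. By its median correlation with the other 8 genes, Stab1 was highest at 0.307 and Kdr lowest at -0.155.

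Some arrays were at the end of their diet for several genes at once. For single probes, Dixon's outlier rule flagged 0 of 22 groups, each being 1 kept probe in 1 diet. In SD units and averaged over the 9 genes, PAL_429_03 was at -1.27, PAL_418_07 at 0.72, and the other 12 arrays lay between -0.36 and 0.51. PAL_418_07 was the highest palatinose array for Stab1, Stab2, Clec4g, Fcgr2b and Pecam1 and the lowest for 0 of the 9. Among sucrose arrays, SUC_408_02 was lowest for Stab2, Clec4g, Fcgr2b and Eng and highest for Kdr and Cdh5, so it held no common direction. SUC_424_02, the brightest array, was the highest sucrose array for Lyve1, Fcgr2b and Pecam1 and the lowest for Stab1 and Kdr. Single genes were related to the mean intensity of the array in both directions. With both centred on the diet mean, Pearson r over 14 arrays was 0.507 for Pecam1, 0.460 for Fcgr2b and 0.351 for Lyve1, against -0.487 for Stab1 and -0.451 for Kdr, and -0.288 to 0.159 for the other 4. Lyve1 and Pecam1, the closest pair, thus share a sign here, and Fcgr2b and Kdr, the pair with the lowest correlation, have opposite ones. Without SUC_424_02 the 9 values ran from -0.240 to 0.280. The part of array brightness in the pair correlations was not tested. Without SUC_424_02 Lyve1 with Pecam1 had r = 0.684.

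**Figure D4:**
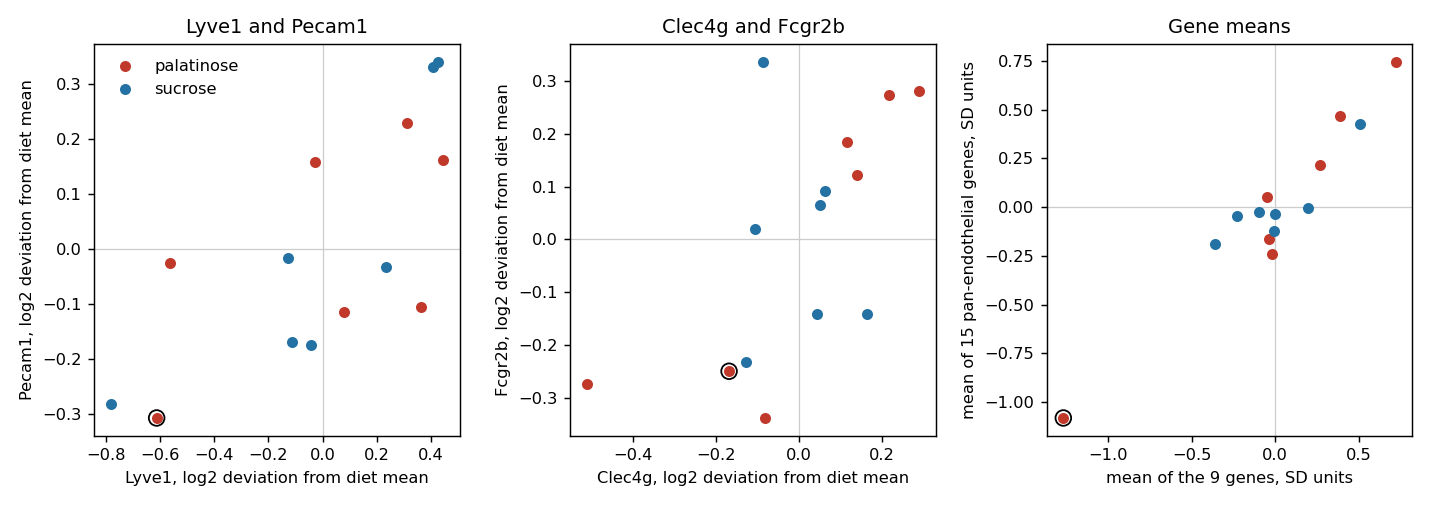
Values of 14 arrays after subtraction of the diet mean: Lyve1 against Pecam1, Clec4g against Fcgr2b (log2 units), and the mean of the 9 genes against the mean of 15 other endothelial genes (SD units); PAL_429_03 is circled. PAL_429_03 is the lowest array in the third panel, at -1.27 for the 9 genes and -1.08 for the 15.

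Of the other endothelial lists, the pan-endothelial one was closest to the 9 genes across mice. The mean of 15 measured pan-endothelial genes outside the set correlated with the mean of the 9 at a Pearson r of 0.956 and a Spearman rho of 0.789 over 14 arrays. The r was 0.902 without PAL_429_03, 0.836 without PAL_429_03 and PAL_418_07, 0.975 within palatinose livers and 0.876 within sucrose livers. Both means come from the same arrays and share their normalization. Single genes of the 2 groups were less alike: the median correlation between one of the 9 and one of the 15 was 0.23. Between genes of the 15 themselves the median was 0.105. The mean of 11 other sinusoidal genes gave r = 0.651 with the mean of the 9. It was 0.552 without PAL_429_03, 0.357 without PAL_429_03 and PAL_418_07, 0.824 within palatinose livers and 0.182 within sucrose livers. For 9 genes of other liver vessels r was 0.419, and 0.017 without PAL_429_03, and for 4 lymphatic genes it was -0.326. The mean of 9 macrophage genes gave r = 0.619 (0.456 without PAL_429_03) and a Spearman rho of 0.754. The median correlation between one of the 9 and one macrophage gene was 0.292, above the 0.23 for the pan-endothelial genes. Between macrophage genes themselves the median was 0.655. By contrast r was -0.062 for 7 hepatocyte genes and -0.113 for 7 stellate cell and fibroblast genes. Among the pathway lists r was -0.079 for the VEGF and angiopoietin axis, -0.066 for endocytosis and -0.244 for the adherens junction. The largest in size was that for 12 genes of the BMP and TGF-β axis, -0.683, and -0.719 without PAL_429_03. Single genes of this axis were related more weakly to the 9, with a median correlation of -0.144, and to each other, with a median of 0.013.

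PAL_429_03 was below the palatinose mean for all of the 9 genes but Kdr (0.01 log2 units above), and it was low for other lists too. Its mean was -1.08 SD over the 15 pan-endothelial genes, -0.81 over the 11 other sinusoidal genes and -1.31 over the 9 macrophage genes, and -0.05 over the hepatocyte genes. It carried the highest sum of muscle markers of all arrays, as given above. The other arrays with muscle transcripts, PAL_417_03, PAL_407_04 and SUC_415_02, were at 0.39, -0.05 and -0.10 SD over the 9 genes. Over the macrophage genes they were at 0.94, -1.21 and -0.28 SD, so PAL_407_04 was nearly as low there as PAL_429_03. What part the muscle RNA had in the values of PAL_429_03 was not tested.

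By the Pearson correlation with the mean of the 9 over 14 arrays, the 5 closest genes were Cracr2b (0.852), Esam (0.842), Myo7a (0.833), Swi5 (0.831) and Myo1d (0.820). Esam encodes an adhesion molecule of endothelial junctions and was among the 15 pan-endothelial genes. Their diet differences were -0.01 for Cracr2b, 0.07 for Esam, 0.16 for Myo7a, 0.36 for Swi5 and -0.08 for Myo1d, and none passed the test (limma adjusted p from 0.678 to 0.992).

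Further genes of sinusoidal endothelium also included none that passed the test. Of 14 listed, 11 were measured, 10 had a lower mean with palatinose and 1 a higher one, and their median difference was -0.13, against 0.01 over all features. Mrc1, the mannose receptor that these cells use for collagen fragments and lysosomal enzymes and that macrophages also carry, differed by -0.24 (95% interval -0.53 to 0.04). Oit3 differed by -0.15, Dnase1l3, a secreted nuclease, by -0.02, and the receptor gene Gpr182 by 0.08. Tfpi, an inhibitor of the tissue factor pathway of clotting, had the largest difference, -0.31 (95% interval -0.58 to -0.03, limma adjusted p = 0.681). It is singled out here after its value was seen. The count of lower genes was 8 to 10 on leaving out each array, and 9 without the 5 arrays with other tissue. Bmp2, an angiocrine signal for iron balance, was detected on 0 arrays, and the endothelial transcription factor genes Gata4 and Maf on 5 and 1.

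The 15 measured pan-endothelial genes had 7 higher and 8 lower means with palatinose, and their median difference was -0.01. Tek, the receptor for angiopoietins, differed by -0.11, Emcn by -0.14, Esam by 0.07 and Tie1 by 0.01. Genes of other liver vessels and of capillarisation, the loss of the sinusoidal character, were split as well, with 5 of 9 higher and a median of 0.03. Among them Plvap, which encodes a protein of endothelial diaphragms, differed by 0.03, Selp by 0.06, Cd34 by -0.04 and Vwf by -0.11. Gja5, a gap junction gene of arterial endothelium, and the adhesion gene Icam1, both singled out after their values were seen, differed by 0.21 (95% interval 0.06 to 0.37, limma adjusted p = 0.678) and by 0.29 (0.0075 to 0.58, adjusted p = 0.695). Of 4 lymphatic genes 2 were higher and 2 lower, with Prox1 at 0.07 and Pdpn at -0.18. None of the genes of these lists passed (smallest limma adjusted p 0.678).

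**Figure D5:**
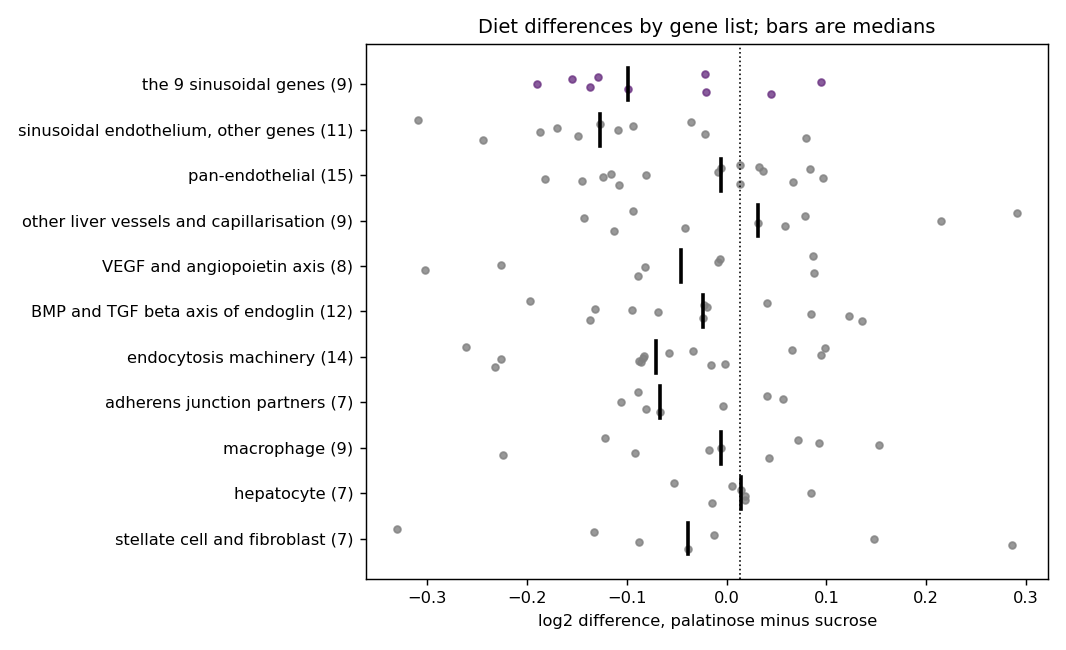
Difference between the diets, palatinose minus sucrose, in log2 intensity for each measured gene of the lists with at least 5 measured genes; bars are medians and the dotted line is the median of all 8829 features. The medians of all lists lie between -0.13 and 0.03.

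The pathways in which the 9 genes act were examined in the same way, and 0 of their genes passed. Around Kdr, 2 of 8 measured genes of the VEGF and angiopoietin axis were higher and 6 lower, with a median of -0.05. The ligand Vegfa differed by -0.09, Vegfb by 0.09 and Vegfc by -0.30, and the receptor Flt1 by -0.08. Around Eng, 4 of 12 genes of the BMP and TGF-β axis were higher and 8 lower, with a median of -0.02. Gdf2, which encodes the endoglin ligand BMP9, differed by 0.14, Tgfb1 by 0.12, Tgfbr1 by -0.02 and Tgfbr2 by -0.14, and Acvrl1, the receptor that endoglin assists, was detected on 0 arrays. Around the uptake receptors, 3 of 14 genes of endocytosis were higher and 11 lower, with a median of -0.07. Cltb, a clathrin light chain, differed by -0.23 (95% interval -0.43 to -0.03, limma adjusted p = 0.681), and the adaptor subunits Ap2a1, Ap2b1 and Ap2m1 by -0.02, -0.0014 and -0.09. Around Pecam1 and Cdh5, 2 of 7 genes of the adherens junction were higher and 5 lower, with a median of -0.07, where β-catenin (Ctnnb1) differed by -0.07 and α-catenin (Ctnna1) by -0.08.

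Markers of the other cells in which some of the 9 genes are active gave the following values, as normalized intensity per array summed over the listed genes on the array. Macrophage markers summed to 1449.1 to 3757.2 in palatinose livers and 1863.5 to 3240.3 in sucrose livers, with 4 of 9 measured genes higher and 5 lower and Cd5l detected on 0 arrays. Vsig4 and Clec4f, genes of Kupffer cells, differed by -0.22 and 0.04. B cell markers summed to 23.3 to 234 in palatinose livers and 30.1 to 56.3 in sucrose livers, and 1 of the 6 listed genes was measured. Platelet markers summed to 23.6 to 48.4 with palatinose and 26.9 to 40.7 with sucrose, with 1 of 5 measured and Ppbp detected on 0 arrays. T and NK cell markers ran from 22.8 to 136.4 with palatinose and from 30.5 to 52.8 with sucrose, and neutrophil markers from 43.4 to 125.9 with palatinose and from 39.8 to 169.3 with sucrose. Hepatocyte markers (5 of 7 higher, 2 lower) summed to 119316.9 to 128867 with palatinose and 118269.4 to 126240.5 with sucrose, and those of stellate cells (2 of 7 higher, 5 lower) to 2073.2 to 3629.2 with palatinose and 2240 to 3761.7 with sucrose. Erythroid, cholangiocyte and adipocyte lists had 2, 1 and 1 measured genes. No gene of these lists passed the test, and the part of these cells in the values of the 9 genes was not tested.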

How the data were processed

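Liver RNA of 7 palatinose-fed and 7 sucrose-fed mice was measured on 14 arrays. Per the file headers, the deposited non-normalized table gives every probe an intensity per array, with its detection p-value; 23.05% to 26.43% of intensities are below 0, so background had been subtracted before deposit. The authors' normalized table holds intensities on a linear scale by a method not given in the sources used here (all 14 column medians are 21), and it was used as an alternative. Columns of the non-normalized table show the diet but carry no replicate number.

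Intensities were background-corrected from the detection p-values (offset 16), quantile normalized and log2-transformed by the neqc function of limma 3.58.1 (R 4.3.3). Probes with a detection p-value under 0.05 on at least 7 of 14 arrays were kept (11628), and the probe with the highest mean was tested for each gene, which gave 8829 features and 8146 named genes. Symbols came from the platform annotation and were updated through Entrez IDs with RefSeq. The diet difference was fitted in limma (lmFit, eBayes), two-sided, with Benjamini-Hochberg adjustment over all features. Other kept probes of the 9 genes were read from the same model over all kept probes.

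Array brightness and intervals under other offsets were examined after the data were seen. Correlations used 100000 permutations within diets (exact within 1 diet). SD units are diet-centred values divided by each gene's SD. Of 205 listed genes 185 were on the array and 113 measured. Genes named are the 9, the 5 closest by correlation, and genes from among the first 4 measured of each list. Not all of those first 4 are named, for example in the lymphatic, junction, macrophage, hepatocyte and stellate cell lists. Tfpi, Gja5 and Icam1 were chosen after their values were seen. So were list genes named for being detected on few or no arrays (Alb, Bmp2, Gata4, Maf, Acvrl1, Cd5l and Ppbp). The 9 genes and the lists were chosen with earlier results of these data known. Alternatives were other background and scaling settings, offsets, filters, probe rules, moderation, array weights, blocks, the authors' values and left-out arrays. Precision is limited by the number of arrays. The scripts were tested on simulated data.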

Additional observations from a re-analysis of the deposited data

How the results depend on the processing

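Over 29 other settings, 0 of the 9 genes were called, and 0 features were called in all but 1 setting: without the detection filter limma called 1 of 18312 features (1084 at an unadjusted p under 0.05). With median scaling 2 pairs of genes passed, Lyve1 with Pecam1 (r = 0.787, adjusted p = 0.0275) and Clec4g with Fcgr2b (r = 0.730, adjusted p = 0.0275). That scaling raised the median of the 36 pairs from 0.18 to 0.27. It gave 7 pairs with an unadjusted permutation p under 0.05, against 3 in the main setting. Pairs of all features were not examined under median scaling, so no share stands beside the 2. Without the 5 arrays with muscle or pancreatic transcripts, 4 of 9 genes were lower with palatinose, the median pair correlation was 0.0051, and Stab2 (0.12), Lyve1 (0.0081) and Eng (0.056) turned positive; the cause was not tested. Leaving out each array in turn gave 4 (without PAL_429_03) to 8 lower genes, a median difference of -0.14 to 0.0038, a median pair correlation of -0.024 to 0.23, and differences of -0.0031 to 0.12 for Stab1, -0.087 to 0.064 for Stab2, -0.23 to 0.0038 for Lyve1 and -0.065 to 0.020 for Eng; the other genes kept their sign, at -0.19 to -0.051 for Clec4g, -0.24 to -0.13 for Fcgr2b, 0.028 to 0.14 for Kdr, -0.20 to -0.097 for Pecam1 and -0.16 to -0.082 for Cdh5. Kdr and Cdh5 were not measured under a filter of a detection p under 0.01 on all 14 arrays. The authors' columns carry replicate numbers 1 to 7 in both diets. Same-numbered arrays deviated together weakly or not at all (r from -0.208 to 0.168, above 0.1 in 3 of 7 pairs). The labels give these as biological replicate numbers and state no pairing. Such correlations cannot show whether the mice were paired. With the replicate number as a block on the authors' values, 0 features and 0 of the 9 genes were called, 7 were lower and the median difference was -0.10. With the first number of the column code, whose meaning is not given, as a random block (estimated correlation 0.362), 0 features were called and 7 of the 9 genes were lower, with Stab2 at -0.082, Lyve1 at -0.048, Clec4g at -0.090 and Eng at -0.046. With array weights, 7 were lower, the median difference was -0.050, and the differences were -0.092 for Fcgr2b, -0.065 for Pecam1, -0.084 for Clec4g, -0.031 for Lyve1, -0.050 for Stab2, -0.048 for Eng and 0.034 for Kdr. With an offset of 50 the median difference was -0.066 and Kdr was at 0.040. The dim probes of Kdr and Cdh5 limit what these arrays can show for those genes.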
